A study of Homo sapiens with 4 samples.

Results

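AP-1 is a family of transcription factors that bind DNA as dimers of FOS and JUN proteins or of their relatives in the bZIP class. The level of 8 genes of this family was followed here in 2 cell lines given estrogen: the FOS subfamily (FOS, FOSB, FOSL1 and FOSL2), the JUN subfamily (JUN, JUNB and JUND) and the related factor ATF3. They were chosen by their symbols, 8 of 33540 features listed for Ishikawa and 8 of 33538 for T-47D, and every symbol matched 1 feature in each line. In RefSeq (GRCh38.p14) FOS (ENSG00000170345) lies at chr14:75278828-75282230, FOSB (ENSG00000125740) at chr19:45467996-45475179, FOSL1 (ENSG00000175592) at chr11:65892049-65900545 and FOSL2 (ENSG00000075426) at chr2:28392858-28417317. JUN (ENSG00000177606) lies at chr1:58780791-58784047, JUNB (ENSG00000171223) at chr19:12791486-12793315, JUND (ENSG00000130522) at chr19:18279694-18281622 and ATF3 (ENSG00000162772) at chr1:212565407-212620777. Of these 8, the 4 genes JUN, JUNB, JUND and ATF3 reached a mean of 10 CPM (a gene's UMIs scaled to a fixed total per pool) over the time points in both lines and could enter the fold rule below. FOS, FOSB, FOSL1 and FOSL2 did not in either line and are described by their counts.

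FOS proteins dimerise mainly with JUN proteins, while JUN proteins also pair with each other and with ATF factors. FOS, FOSB, JUN, JUNB and ATF3 are immediate-early genes, transcribed within minutes of growth factor or stress signals without new protein synthesis, and their mRNAs are short-lived. AP-1 sites lie in many enhancers that the estrogen receptor also uses, and the receptor can reach DNA through bound AP-1.

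Ishikawa cells come from a human endometrial adenocarcinoma and T-47D cells from a ductal carcinoma of the breast. Both were kept for days in hormone-depleted medium before treatment. The pools named 0 h received the vehicle DMSO, and the pools named 2 h, 4 h and 8 h received 17β-estradiol (E2) at 10 nM for that time. Each pool came from 1 culture. The 4 cultures of a line were tagged by MULTI-seq, in which a lipid-anchored DNA barcode marks each cell, and were then mixed into 1 droplet library, so no culture was replicated and no test was possible. All intervals below are at 95% and cover counting error only. Those of levels and ratios take UMIs as independent, so they are too narrow for genes whose UMIs came mostly from few cells.

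The 4613 Ishikawa cells kept were 776, 1480, 892 and 1465 at 0, 2, 4 and 8 h, and the 4626 T-47D cells were 1525, 1207, 1341 and 553. A pool held 12927799 to 33175309 unique molecular identifiers (UMIs), each marking a single captured transcript. The Ishikawa 0 h pool stood apart in that 38.2% of its called barcodes lay within the study's limits on UMIs, genes and mitochondrial share, against 52.4% to 55.8% at the other times. The cell lines matched their labels: PAX8, HOXA10, SOX17 and EMX2 were measured in Ishikawa and had 0 UMIs in T-47D, and GATA3 and PIP were at 444 to 886 CPM in T-47D and at or near 0 in Ishikawa. Other listed markers were less exclusive. KRT19 was at 406 to 464 CPM in Ishikawa (4733 to 7150 in T-47D) and AGR2 at 13.0 to 22.0 (1494 to 1719). MSX1 was at 0.387 to 1.15 CPM in T-47D (274 to 392 in Ishikawa). Blood and endothelial markers were at most 2.32 CPM, and of the fibroblast markers only COL1A1 passed 2 CPM (19.8 to 28.9 in Ishikawa and 5.58 to 6.96 in T-47D). A reporter feature named GFP took 31688 to 46740 CPM in the Ishikawa pools and 0 in T-47D. The lines' matrices shared 80 cell barcodes, of which 5 were kept in both.

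The promoters of 7 of the 8 genes were found in RefSeq (GRCh38.p14, the build hg38 of the files), and FOSL1 was not among them. The sequences below are the 250 bases before the transcription start, 5′ to 3′, of the genes on which the results turn: JUN, JUNB and ATF3, which were lowest at 2 h in Ishikawa, FOS, which was highest at 8 h in Ishikawa, and FOSL2, which was highest at 2 h in T-47D. Capitals mark matches, on either strand, to TGACNTCA or TGACGT (forms of the cAMP-response element, bound by ATF and JUN dimers), to the TATA motif TATAAA and to the estrogen half-site AGGTCA. JUN lies at chr1:58784048-58784297 (minus strand), JUNB at chr19:12791236-12791485 (plus strand), ATF3 at chr1:212565157-212565406 (plus strand, the outer of its 2 start sites), FOS at chr14:75278578-75278827 (plus strand) and FOSL2 at chr2:28392608-28392857 (plus strand).
JUN: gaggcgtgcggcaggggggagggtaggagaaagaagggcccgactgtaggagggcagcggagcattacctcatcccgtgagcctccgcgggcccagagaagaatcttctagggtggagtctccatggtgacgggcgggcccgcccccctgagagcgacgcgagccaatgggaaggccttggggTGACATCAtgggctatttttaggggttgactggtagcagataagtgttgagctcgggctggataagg
JUNB: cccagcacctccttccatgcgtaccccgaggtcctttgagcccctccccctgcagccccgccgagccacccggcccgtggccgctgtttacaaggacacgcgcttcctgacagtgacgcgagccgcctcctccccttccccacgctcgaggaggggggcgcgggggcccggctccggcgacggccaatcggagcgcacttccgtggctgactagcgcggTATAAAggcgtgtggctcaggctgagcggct
ATF3: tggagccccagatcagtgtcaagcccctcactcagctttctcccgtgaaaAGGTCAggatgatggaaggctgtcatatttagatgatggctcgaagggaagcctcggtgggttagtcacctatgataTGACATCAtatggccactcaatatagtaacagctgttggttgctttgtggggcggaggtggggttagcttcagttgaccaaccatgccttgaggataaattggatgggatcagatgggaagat
FOS: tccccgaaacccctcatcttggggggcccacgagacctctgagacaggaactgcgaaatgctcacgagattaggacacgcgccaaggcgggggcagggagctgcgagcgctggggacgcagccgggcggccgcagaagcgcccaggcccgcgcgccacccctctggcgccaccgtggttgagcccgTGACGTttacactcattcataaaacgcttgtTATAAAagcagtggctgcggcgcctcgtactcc
FOSL2: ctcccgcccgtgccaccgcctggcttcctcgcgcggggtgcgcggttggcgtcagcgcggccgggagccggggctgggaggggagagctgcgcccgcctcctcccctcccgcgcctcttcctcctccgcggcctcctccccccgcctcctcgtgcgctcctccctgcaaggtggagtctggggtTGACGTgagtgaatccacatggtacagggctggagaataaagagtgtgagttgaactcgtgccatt

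In these windows the JUN promoter held TGACATCA from 67 to 60 bases before the start, and the outer ATF3 promoter held the same letters from 123 to 116 bases before it. FOS and FOSL2 shared a TGACGT match at almost the same distance, 64 to 59 bases before the start in FOS and 66 to 61 in FOSL2, and FOSB had one at 60 to 55. JUND, not printed, held the full palindrome TGACGTCA at 200 to 193. TATAAA stood 33 to 28, 31 to 26 and 30 to 25 bases before the starts of FOS, JUNB and FOSB. TGACNTCA was found in 6.87% of 35116 promoters of this length, TGACGT in 7.10%, TATAAA in 10.7% and AGGTCA in 12.1%. None of the members' windows held the AP-1 site TGANTCA (6.57% of promoters), the full palindromic estrogen response element (0.0399%) or the CArG box of serum response factor (1.16%). Bases further than 250 from the start were not searched, so a site may lie outside the window. A match is a description of letters and not evidence of binding.

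**Figure D1:**
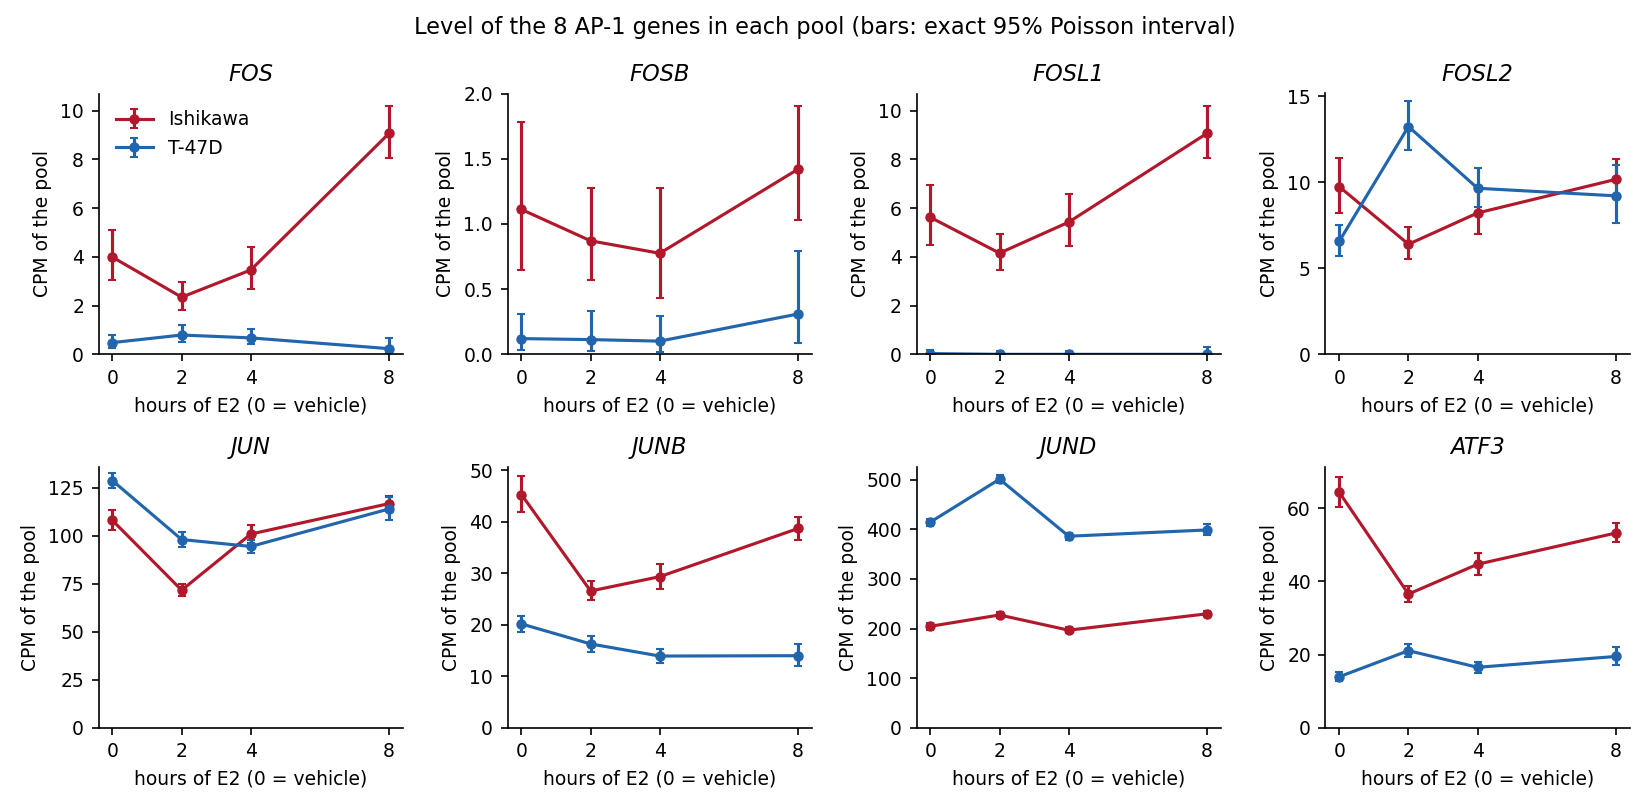
Level of each of the 8 genes, in CPM of the pool (vertical axis), against hours of E2 (horizontal axis, 0 = vehicle), in Ishikawa (red) and T-47D (blue). Points are single pools and bars are exact Poisson intervals. In Ishikawa 6 of the 8 genes had their lowest value at 2 h, whereas in T-47D FOSL2, JUND and ATF3 were highest at 2 h.

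The order of the levels at 0 h was similar in the lines, with JUND and JUN on top and the FOS subfamily at the bottom. A UMI counts a transcript once whatever its length, so CPM of different genes were compared without division by length. In Ishikawa the order was JUND (204 CPM), JUN (108), ATF3 (64.3), JUNB (45.3), FOSL2 (9.74), FOSL1 (5.62), FOS (3.99) and FOSB (1.11). The intervals of neighbours were apart except those of FOSL1 (4.49 to 6.94) and FOS (3.05 to 5.12). In T-47D it was JUND (414), JUN (129), JUNB (20.2), ATF3 (14.0), FOSL2 (6.57), FOS (0.482), FOSB (0.121) and FOSL1 (0.0301). Here the intervals of FOS (0.276 to 0.783), FOSB (0.0329 to 0.309) and FOSL1 (0.000763 to 0.168) overlapped from neighbour to neighbour.

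The 4 tested genes lay on both sides of the comparison between the lines at 0 h. JUNB was 2.25 times as high in Ishikawa as in T-47D (interval 2.02 to 2.50) and ATF3, a stress-induced factor that can repress or activate its targets, 4.61 times (4.12 to 5.16). JUND, the member that most resting cells express, was 2.03 times as high in T-47D (1.95 to 2.11). JUN was close in both, with T-47D at 1.19 times Ishikawa (1.13 to 1.26). Thus 2 of 4 passed 1.5-fold toward Ishikawa and 1 of 4 toward T-47D. Of all 8921 genes tested between the lines, 35.4% passed toward Ishikawa and 24.5% toward T-47D, so such differences were common. With Ishikawa cells of under 1% GFP alone, 2 passed toward T-47D, and ATF3 in those cells was at 22.6 CPM, much nearer to the 14.0 CPM of T-47D. FOS was 8.26 times as high in Ishikawa (4.71 to 15.4) and FOSL1 186 times (32.6 to 7447), the latter on 86 UMIs against a single UMI.

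FOS, the founding FOS subunit and the usual marker of acute signalling, was rare in Ishikawa and almost absent in T-47D. In Ishikawa it had 61, 70, 67 and 281 UMIs at 0, 2, 4 and 8 h, or 3.99, 2.34, 3.46 and 9.07 CPM. The 8 h pool was the highest and its interval (8.04 to 10.2) overlapped no other. The plain ratio to 0 h was 2.27 at 8 h (1.72 to 3.05), and the step from 4 h to 8 h, which does not use the 0 h pool, was 2.62 (2.00 to 3.47). In T-47D, FOS had 16, 21, 20 and 3 UMIs (0.482, 0.792, 0.675 and 0.232 CPM), and all 4 intervals overlapped.

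The FOS UMIs of Ishikawa came from few cells in every pool. With every cell thinned to 10000 UMIs, so that depth could not set the shares, 3.29%, 2.29%, 2.73% and 5.27% of cells had a FOS UMI, and the interval at 8 h (4.17% to 6.55%) overlapped that at 0 h (2.14% to 4.82%). At 8 h the 15 cells with the most FOS UMIs, 1% of the pool, held 53.0% of them, and a single cell held 28. At 0, 2 and 4 h the top 1% of cells held 42.6%, 40.0% and 40.3%, and no cell held more than 6. Cells with FOS at 8 h more often had a UMI of EGR1, another immediate-early factor (48.7% of 76 cells against 18.2% of the rest), of JUNB (46.1% against 26.8%) and of ATF3 (46.1% against 16.03%). The same held for IER2 (71.1% against 46.9%), JUN (63.2% against 47.6%) and FOSB (9.21% against 0.805%). The intervals of each pair of shares at 8 h were apart, and these genes were chosen after the values were seen. At 2 h, with 33 FOS cells, the intervals were apart for all of these genes but JUNB. At 0 h (25 FOS cells) and 4 h (24) they overlapped for every gene. Ishikawa cells whose GFP share was at least 1% made up 38.5% of the 8 h pool and held 71.9% of its FOS UMIs. Their FOS level was 17.8 CPM against 4.02 in the other cells, where the log2 change from 0 h was 0.21 in place of 1.01.

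FOSB, another immediate-early FOS subunit, gave 17, 26, 15 and 44 UMIs in Ishikawa (1.11, 0.871, 0.775 and 1.42 CPM) and 4, 3, 3 and 4 in T-47D. No pool of either line stood apart. FOSL1 (FRA-1), a subunit often high in invasive carcinoma cells, had 86, 124, 105 and 281 UMIs in Ishikawa, or 5.62, 4.15, 5.42 and 9.07 CPM. Its 8 h interval (8.04 to 10.2) also lay above the other 3, with a ratio to 0 h of 1.61 (1.26 to 2.08). In T-47D FOSL1 had 1 UMI at 0 h and 0 at 2, 4 and 8 h, and a count of 3 there, the limit that a count of 0 allows, would be 0.113, 0.101 and 0.232 CPM.

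FOSL2 (FRA-2), a FOS relative that is induced more slowly, stood on opposite sides of its 0 h level in the lines at 2 h. In Ishikawa its levels were 9.74, 6.40, 8.21 and 10.2 CPM, lowest at 2 h. In T-47D they were 6.57, 13.2, 9.65 and 9.20 CPM, highest at 2 h. The ratio of 2 h to 0 h was 0.657 in Ishikawa (0.527 to 0.819) and 2.01 in T-47D (1.70 to 2.40). The share of thinned T-47D cells with a FOSL2 UMI was 6.16% at 0 h (5.01% to 7.49%) and 11.8% at 2 h (10.1% to 13.8%), without overlap. Its mean over the pools was under 10 CPM in both lines, so it was not counted below.

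Changes against 0 h are given as log2((CPM + 1)/(CPM at 0 h + 1)), which understates the change of low genes. To pass, a gene needed a mean over the pools of 10 CPM or more and a change of at least 1.5-fold, or 0.585 on this scale. In Ishikawa at 2 h, 2 of the 4 tested members, JUNB and ATF3, passed it downward, where 0.659% of all 7885 genes did, and 0 upward (0.786% of genes). At 4 h, 1 passed downward, JUNB (0.621%), and 0 upward (0.634%). At 8 h, 0 passed in either direction (0.469% down, 0.812% up). In T-47D 0 of 4 passed at any time, where at 2, 4 and 8 h 0.417%, 0.363% and 0.726% of 7440 genes passed downward and 1.22%, 1.33% and 2.34% upward. The median change of the 4 members was -0.67, -0.31 and -0.05 in Ishikawa, against -0.01, -0.27 and -0.11 for T-47D, beside medians over all genes between -0.01 and 0.01.

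JUN, the partner of all FOS proteins and a driver of proliferation, was lowest at 2 h in Ishikawa. Its levels were 108, 71.7, 100.9 and 117 CPM, and the 2 h interval (68.6 to 74.8) lay below the other 3. The log2 change at 2 h was -0.58, just short of the rule, on a plain ratio of 0.664 (0.622 to 0.708). It passed under other settings, such as totals without the reporters (-0.61) or every called barcode (-0.62). In T-47D JUN stood at 129, 98.0, 94.4 and 114 CPM, lower at 2 h and 4 h than at 0 h and 8 h without overlap of the intervals, and the changes were -0.39, -0.44 and -0.17. A JUN UMI was found in 49.3% of thinned Ishikawa cells at 0 h and 34.2% at 2 h, and in 61.0% and 51.8% of thinned T-47D cells.

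JUNB, which can oppose JUN at many promoters, fell in Ishikawa at 2 h and 4 h. Its levels were 45.3, 26.6, 29.3 and 38.7 CPM, and the 0 h interval (42.0 to 48.8) lay above the other 3. The log2 changes were -0.75, -0.61 and -0.22. In T-47D JUNB was at 20.2, 16.3, 13.9 and 14.0 CPM, again highest at 0 h (18.7 to 21.8), with changes of -0.29, -0.50 and -0.50 that did not reach the rule. The share of thinned cells with a JUNB UMI was 32.1%, 20.6%, 23.2% and 27.8% in Ishikawa, against 17.4%, 14.4%, 11.3% and 14.5% for T-47D.

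JUND, the steady member of the family, varied least of the 4 tested genes in Ishikawa, at 204, 227, 197 and 230 CPM with log2 changes of 0.15, -0.06 and 0.17. In T-47D it was 414, 501, 386 and 398 CPM, and the 2 h pool (492 to 509) was above the others. Its changes there were 0.27, -0.10 and -0.06, under the rule at every time. JUND UMIs were found in 74.3% to 81.2% of thinned Ishikawa cells and in 92.7% to 97.2% of thinned T-47D cells. Each line was run as 1 library without a cell type that should lack these genes, so the share that free RNA alone would give was not tested.

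ATF3 fell in Ishikawa at 2 h, where its levels were 64.3, 36.5, 44.7 and 53.2 CPM. All 4 counting intervals were apart, with 0 h on top (60.3 to 68.4) and 2 h lowest (34.4 to 38.8), and the log2 changes were -0.80, -0.52 and -0.27. The variance of its thinned counts here was 5.95 to 13.1 times the mean. The counting intervals are therefore too narrow and do not settle the order of neighbouring pools. In T-47D ATF3 was at 14.0, 21.1, 16.5 and 19.5 CPM, lowest at 0 h (12.7 to 15.3) and highest at 2 h (19.4 to 22.9), and the intervals of 0 h and 4 h overlapped. The changes there were 0.56, 0.23 and 0.45, short of the rule. Thinned cells with an ATF3 UMI were 21.3%, 13.2%, 16.4% and 17.6% in Ishikawa, against 12.2%, 16.1%, 12.1% and 15.2% for T-47D. Thinning left out 17, 37, 13 and 23 Ishikawa cells and 0 T-47D cells. Without it the shares for ATF3 were 29.1%, 17.7%, 26.0% and 24.1% in Ishikawa, against 22.8%, 31.6%, 24.0% and 31.8% for T-47D, those for JUN were 46.2% to 64.0% and 67.9% to 78.0%, and those for JUNB 31.9% to 48.6% and 25.1% to 31.8%. Thus the pooled level of ATF3 was below that of 0 h at all 3 times in Ishikawa and above it at all 3 in T-47D. This difference between single cultures could not be tested. In the T-47D 4 h pool a single cell held 27 of the 490 ATF3 UMIs. The share of thinned cells there (12.1%) was not above that at 0 h (12.2%).

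The 2 h calls of both genes in Ishikawa depended on which cells were taken. In cells at or under the line's median mitochondrial share the change of ATF3 was -0.45 and that of JUNB -0.94, while in cells over it they were -1.32 and -0.58, so a different gene missed the rule in each. JUNB at 4 h was near the limit and did not pass with every called barcode (-0.58), with a mean over cells (-0.58) or among cells without a UMI of TOP2A and MKI67, markers of dividing cells (-0.44). The 1256 called Ishikawa cells of 0 h that lay outside the study's limits had 41.3 CPM of JUNB and 51.2 of ATF3, and the 1171 such cells of 2 h had 27.0 and 35.1, so the lower 2 h level was also measured in cells not used above.

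Steps between successive pools leave the 0 h pool out. Of the 4 tested members 0 passed 1.5-fold upward or downward from 2 h to 4 h, where 0.127% and 0.19% of all genes did in Ishikawa, against 0.108% and 0.202% for T-47D. From 4 h to 8 h again 0 passed, beside 0.127% and 0.101% of genes in Ishikawa, against 0.161% and 0.0941% for T-47D. In Ishikawa JUN was 1.41 times as high at 4 h as at 2 h (1.32 to 1.497), ATF3 1.22 times (1.12 to 1.34) and JUNB 1.10 times (0.990 to 1.23). From 4 h to 8 h all 4 were higher, by ratios of 1.16 for JUN, 1.32 for JUNB, 1.17 for JUND and 1.19 for ATF3, and all 4 intervals lay above 1. In T-47D JUND and ATF3 were lower at 4 h than at 2 h, with ratios of 0.771 (0.751 to 0.790) and 0.784 (0.693 to 0.887).

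**Figure D2:**
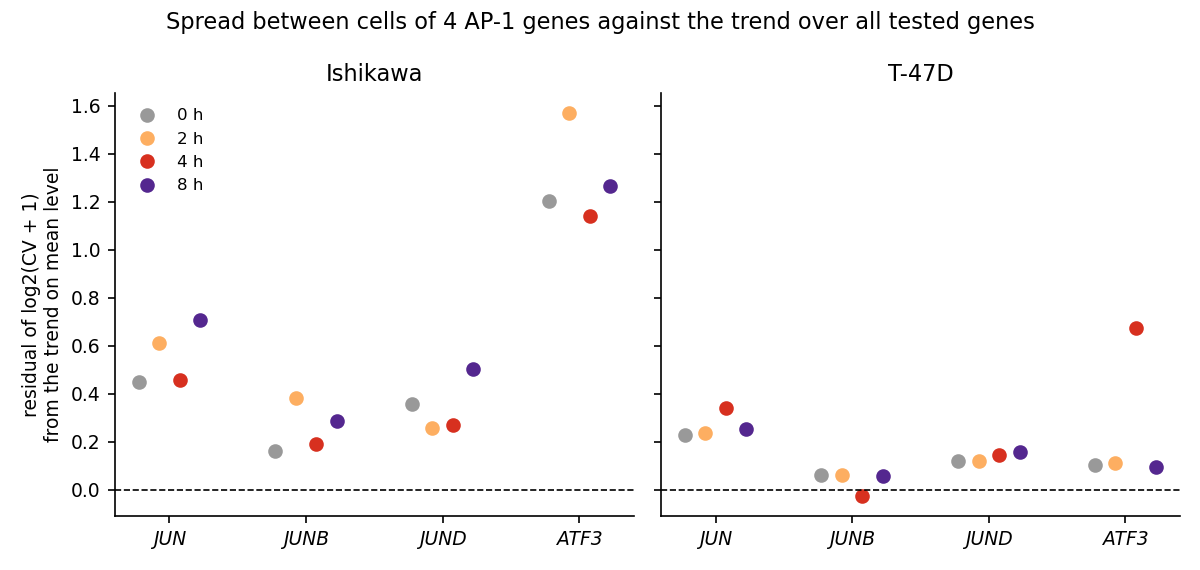
Spread between cells of JUN, JUNB, JUND and ATF3 in Ishikawa (left) and T-47D (right), each point a pool coloured by hours of E2. The vertical axis is the residual of log2(CV + 1) from its trend on the mean level over all tested genes (dashed line, 0). ATF3 in Ishikawa lies between 1.14 and 1.57, above every other point, and JUNB at 4 h in T-47D (-0.03) is the only point below the line.

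The 4 tested members varied more between cells than most genes of the same level, except JUNB in some T-47D values. The CV (standard deviation over mean) of a gene's UMIs per 10000 was set against its trend on mean level over all tested genes, and within each of 10 bins of mean the top 20% of residuals were called High. All 16 member and pool values of Ishikawa were High, and 15 of the 16 of T-47D. The exception was JUNB at 4 h in T-47D, at the 49.2 percentile. ATF3 in Ishikawa had CVs of 3.70, 5.89, 3.76 and 4.04, at percentile 99.9 or above of 7885 genes in every pool. Those of JUN were 1.55, 2.09, 1.53 and 1.95 (percentiles 99.0 to 99.6). In T-47D the ATF3 CV was 2.25, 1.87, 3.50 and 1.83, and the 4 h value rested on a few cells, of which a single cell had 27 UMIs. With Ishikawa cells of under 1% GFP all 16 values were again High, and in T-47D thinned cells gave 13 of 16, with JUNB out at 2, 4 and 8 h. There JUNB was at percentiles 60.0, 12.7 and 29.5, and its 4 h value was in the lowest 20% of its bin.

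In Ishikawa ATF3 was absent from most cells and very high in a few. Of thinned cells 78.7%, 86.8%, 83.6% and 82.4% had no ATF3 UMI, while 2.11%, 1.04%, 1.37% and 1.87% had at least 8. The 10% of cells with the most ATF3 held 79.4%, 89.6%, 80.5% and 84.9% of its UMIs. In T-47D the same share of cells held 52.4% to 61.8%, and at least 8 UMIs were seen in 0.0746% of cells at 4 h and in 0 at the other times. The Fano factor, the variance over the mean of thinned counts, which is 1 for pure counting, was 8.78, 13.1, 5.95 and 9.93 for ATF3 in Ishikawa, against 1.13, 1.27, 2.56 and 1.29 for T-47D. For JUN it was 3.002 to 5.05 in Ishikawa and 1.74 to 1.92 in T-47D. FOSL2 lay between 1.00 and 1.24 in both lines, near the counting limit.

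**Figure D3:**
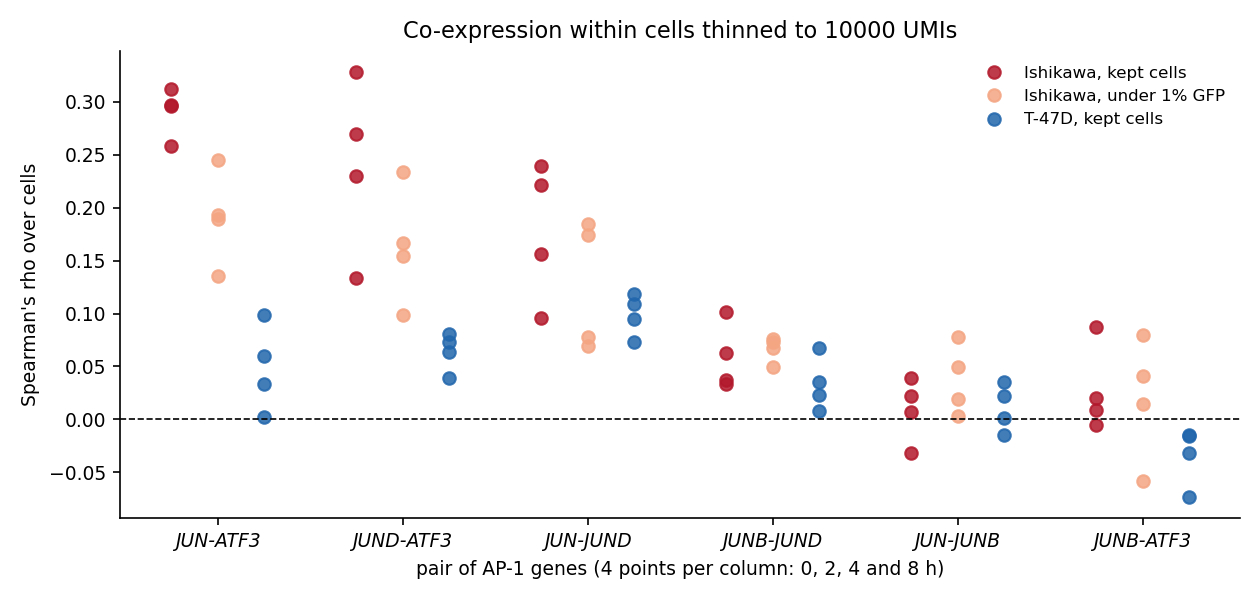
Co-expression of 6 pairs of AP-1 genes within cells, as Spearman's rho over cells thinned to 10000 UMIs (vertical axis), in kept Ishikawa cells (red), Ishikawa cells of under 1% GFP (light) and T-47D cells (blue). Each column holds 4 points, the pools of 0, 2, 4 and 8 h. The 3 pairs among JUN, JUND and ATF3 are highest in Ishikawa and lower among cells of under 1% GFP, and in kept cells pairs with JUNB lie between -0.07 and 0.10.

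Co-expression within cells was described for the 6 pairs of the 4 tested genes, out of 28 pairs, since the other members were in too few cells. The points are cells of 1 culture that share a library. In Ishikawa JUN and ATF3 went together, with rho of 0.26, 0.30, 0.31 and 0.30 at 0, 2, 4 and 8 h. ATF3 was detected in 29.1%, 25.1%, 25.9% and 26.5% of cells with a JUN UMI and in 13.8%, 7.06%, 8.25% and 9.27% of cells without. JUND and ATF3 had rho of 0.33, 0.13, 0.23 and 0.27, and JUN and JUND 0.24, 0.10, 0.16 and 0.22. JUNB was at most weakly tied to them. Its rho with JUN was -0.03 to 0.04, with ATF3 -0.01 to 0.09 and with JUND 0.03 to 0.10. The highest of these, with JUND at 8 h, was as high as the rho of JUN and JUND at 2 h.

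In T-47D no pair of members passed a rho of 0.12. JUN and JUND stood at 0.12, 0.11, 0.10 and 0.07, and JUND and ATF3 at 0.07, 0.04, 0.06 and 0.08. JUN and ATF3 stood at 0.06, 0.03, 0.10 and 0.00, weak values in sparse counts that also moved with the seed of the thinning (0.13 at 2 h with another seed). In Ishikawa cells under 1% GFP the rho of JUN and ATF3 was 0.14, 0.19, 0.19 and 0.24. An upper UMI limit of 1.5 times the line's median, which takes out the deepest barcodes, kept every rho of JUN and ATF3 within the error of the main value and moved 0 of the 20 values of the other pairs in either line. Barcodes tagged as doublets were left out, pairs of cells from the same culture share a tag and could not be seen, and no other doublet caller was run.

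Cells differed in how many of the 8 genes they showed. Of thinned Ishikawa cells 9.49%, 9.84%, 9.90% and 8.88% had a UMI of none of them. The most common number was 2 before E2 (32.0%) and 1 at 2 h (42.3%). Cells with 1 and with 2 members were about equally common at 4 h (33.0% and 33.1%) and at 8 h (31.9% and 31.4%). In T-47D 2 members were most common at every time, in 45.1% to 47.7% of cells, and 1.49% to 3.06% of cells had none. At 8 h in Ishikawa 7 cells had UMIs of 7 members, which was seen in 0 cells of every other pool.

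The genes whose pattern over cells was most like a member's were ranked by the mean rho over the 4 pools, among 5503 genes in Ishikawa and 5170 in T-47D. For JUN in Ishikawa they were CYR61 (0.36) and ANKRD1 (0.34), which are known targets of YAP, and GADD45B (0.27), a stress-inducible growth arrest gene. For ATF3 they were GADD45B (0.34), PPP1R15A (0.34) and DDIT3 (0.31), with PPP1R15A and DDIT3 induced by the integrated stress response, and for JUND they were DDIT3 (0.21), PPP1R15A (0.20) and THUMPD3-AS1 (0.20). THUMPD3-AS1 is an antisense gene, and the sources do not say whether counting used strand. JUNB had ID1 (0.15), IER2 (0.11) and ID3 (0.10), of which ID1 and ID3 are targets of BMP signalling and IER2 an immediate-early gene. In T-47D the highest were S100A6 for JUN (0.12), PRDX1 for JUNB (0.07), SERF2 for JUND (0.30) and FAM111B for ATF3 (0.11).

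**Figure D4:**
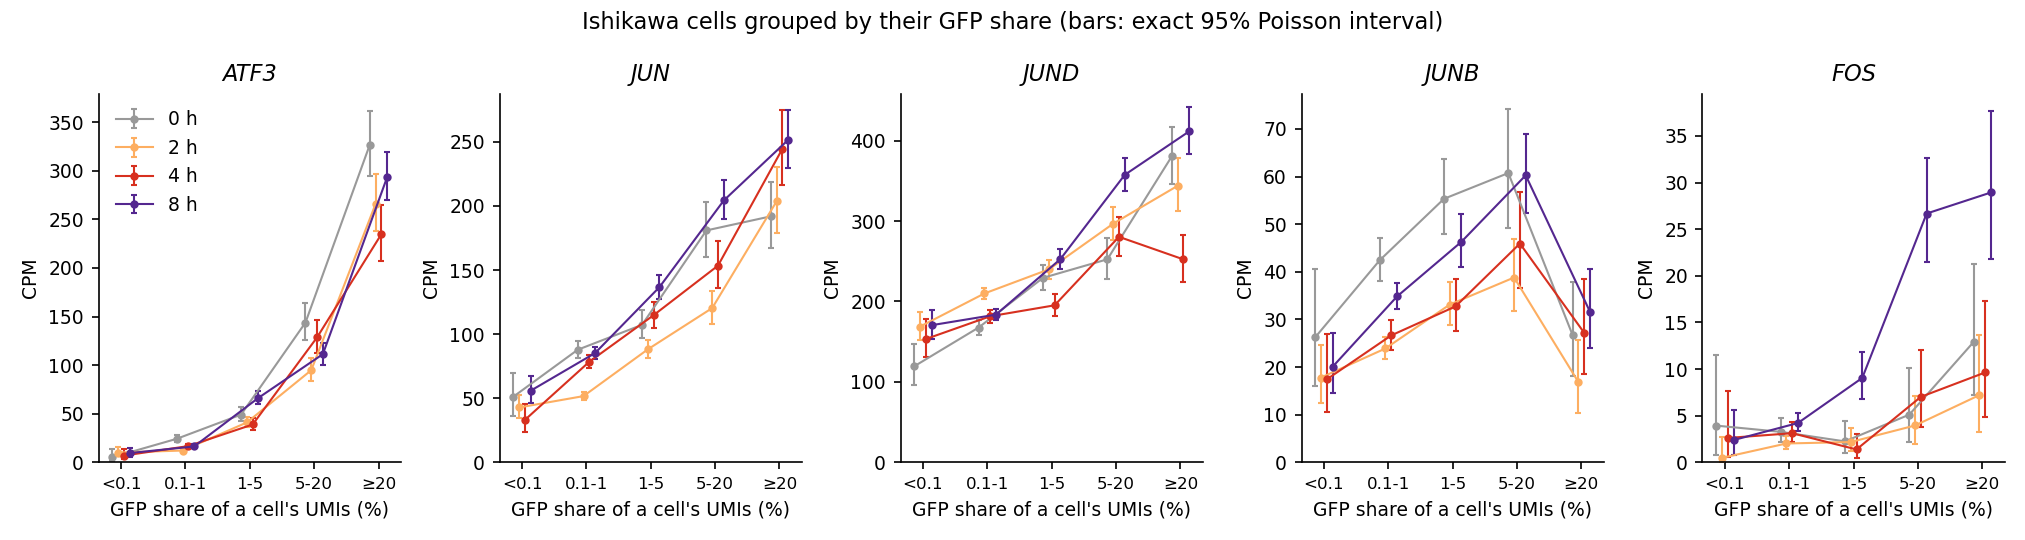
CPM of ATF3, JUN, JUND, JUNB and FOS (vertical axes) in Ishikawa cells grouped by the share of a cell's UMIs that came from GFP (horizontal axis, 5 groups in percent), with 1 line per pool of 0, 2, 4 and 8 h and exact Poisson intervals as bars. ATF3 and JUN are higher in each step of GFP share in the 4 pools, JUNB is lower again at 20% or more, and FOS stands out at 8 h in cells of 5% or more.

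Levels of ATF3, JUN and JUND moved with a cell's GFP share in Ishikawa, and those of the FOS subfamily, on fewer UMIs, were also higher at high shares. At 0 h ATF3 was at 5.25, 24.2, 49.1, 144 and 327 CPM in cells with under 0.1%, 0.1% to 1%, 1% to 5%, 5% to 20% and at least 20% of their UMIs from GFP. The same groups had 51.2, 87.8, 107, 181 and 192 CPM of JUN and 119, 168, 229, 252 and 380 CPM of JUND. JUNB differed, at 26.3, 42.4, 55.3, 60.7 and 26.7 CPM. GFP itself is part of these totals. With the reporters left out of the total, JUNB was at 26.3 CPM in the group with the least GFP at 0 h. It was then at 67.7 CPM at 5% to 20% and at 43.2 CPM at 20% or more. For FOS at 8 h the levels were 2.39, 4.22, 9.06, 26.7 and 28.9 CPM. At 0 h FOS was at 12.9 CPM in the group with the most GFP and at 2.25 to 5.11 in the others. FOSL1 at 0 h was at 2.63, 1.82, 7.86, 9.59 and 22.4 CPM and FOSL2 at 6.56, 6.06, 11.8, 19.8 and 18.1, on 2 to 50 UMIs per group. The rho of GFP share over thinned cells was 0.27 to 0.32 with ATF3, 0.20 to 0.26 with JUN, 0.14 to 0.25 with JUND and 0.01 to 0.07 with JUNB.

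The GFP level of the pools was itself lowest at 2 h (31688 CPM, against 46740 at 0 h). The lower 2 h levels were therefore read within the same 5 groups of GFP share. Each group spans a range of shares, so a difference in GFP between pools may remain within it. JUNB was lower at 2 h than at 0 h in 5 of 5 groups, JUN in 4 of 5 and ATF3 in 4 of 5. The exceptions were JUN at 20% or more (204 CPM at 2 h and 192 at 0 h) and ATF3 at under 0.1% (10.1 and 5.25, on 21 and 4 UMIs), with overlapping intervals. The intervals of 2 h and 0 h were apart for JUNB and JUN in the groups from 0.1% to 20%. For ATF3 they were apart at 0.1% to 1% and at 5% to 20%. They overlapped in the remaining groups that were lower. In all cells of under 1% GFP the log2 changes at 2 h were -0.73 for JUN, -0.79 for JUNB and -0.87 for ATF3, and with 1% or more they were -0.35, -0.64 and -0.59. The part of GFP in the levels themselves was not tested.

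Other measures of a cell had weak rank correlations with the members, but pooled levels of ATF3 differed with them in Ishikawa. Over thinned cells of a pool the rho of JUN, JUNB, JUND or ATF3 with the cell's UMIs lay between -0.14 and 0.04, with its mitochondrial share between -0.10 and 0.07, and with its TOP2A and MKI67 UMIs between -0.12 and 0.08. Most cells had no ATF3 UMI, so a rho says little of its few high cells. ATF3 stood at 79.4, 57.9, 49.2 and 65.9 CPM in Ishikawa cells at or under the median mitochondrial share and at 48.1, 18.7, 38.9 and 36.8 CPM in those over it. Without a UMI of TOP2A and MKI67 it was at 101.2, 52.3, 72.0 and 60.0 CPM, and with one at 48.9, 30.5, 35.9 and 50.4 CPM. ATF3 was thus higher at all 4 times in cells of low mitochondrial share and in cells without these markers, and their part in the changes was not tested.

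The genes around AP-1 were taken from fixed lists. Beside every list below, 0.469% to 0.812% of all genes passed the rule at a time and in a direction in Ishikawa, and 0.363% to 2.34% in T-47D. Counts of 0 in lists of 13 to 18 genes are near these shares. Of the 22 other bZIP partners, which can replace a FOS or JUN subunit in dimers, 15 passed 10 CPM in each line and 0 passed the fold rule at any time. Their ends in Ishikawa were DDIT3 (-0.36 at 2 h and -0.24 at 8 h) and CEBPB (0.51 and 0.19), and in T-47D JDP2 (-0.12 and -0.30) below and ATF4 at 2 h (0.35) and ATF2 at 8 h (0.25) above. Of the 22 upstream kinases and promoter factors of the MAPK path, which phosphorylate JUN and switch on FOS, 18 were measured in Ishikawa and 13 in T-47D, and 0 passed. Their changes at 2 h and 8 h ran from -0.24 (BRAF) to 0.28 (RPS6KA3) in Ishikawa, and the highest in T-47D was 0.35 (MAPK9, at 8 h).

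Of 22 genes known as AP-1 targets, 8 were measured in Ishikawa and 5 in T-47D. In Ishikawa 0 passed at 2 h, where they ran from EZR (-0.25) to CCND1 (0.34), and at 8 h 1 passed downward, the keratin KRT17 (-0.68). In T-47D 1 passed upward at 2 h, CCND1 (0.63), which encodes cyclin D1, and 1 at 8 h, the adhesion receptor CD44 (0.70).

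The other immediate-early genes moved in both directions. Of 26 listed, 14 were measured in Ishikawa. At 2 h 4 passed downward, IER3 (-1.57), CTGF, IER2 and PPP1R15A, and 2 upward, RHOB (0.80) and MYC, and the median was -0.33. At 8 h EGR1 (1.35) and MYC passed upward and IER3 (-1.38) downward, with a median of 0.14. CTGF and MYC were named after their values were seen. Of 8 measured in T-47D, IER3, a regulator of cell survival, passed upward at 2, 4 and 8 h (1.27, 0.96 and 1.08), opposite to Ishikawa, and BTG1, an antiproliferative gene, passed downward at 2 h (-0.59). The medians in T-47D were -0.18, -0.18 and -0.13.

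Lists of stress genes were set beside ATF3, which both heat and amino acid stress can induce. Of 14 heat shock and handling genes 13 were measured in each line. HSPA6, a strictly inducible HSP70, passed downward in Ishikawa at 2 h (-1.78) and 8 h (-0.83), while the highest were BAG3 at 2 h (0.58, just short of the rule) and HSPD1 at 8 h (0.35), and the list medians were 0.07 and 0.20. In T-47D 0 passed, where they ran from HSPA1B at 8 h (-0.29) to HSPD1 at 8 h (0.35). Of 14 genes of the integrated stress response 13 were measured in Ishikawa, where PPP1R15A (-0.62) and TRIB3 passed downward at 2 h and 0 passed at 8 h. TRIB3 was named after its value was seen. In T-47D 8 were measured, and STC2 passed upward at 2, 4 and 8 h (1.49, 1.77 and 1.90) and DDIT4 downward at 4 h and 8 h (-0.78 and -1.22).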

How the data were processed

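Gene expression was measured by droplet single-cell RNA-seq in 8 pools, 4 time points of each of 2 lines. The authors deposited matrices of UMI counts per gene and barcode, raw and not normalized, and lists of the time point called for each barcode. The submitters' processing notes name Cell Ranger 3.1.0 and the build hg38, and strand handling is not stated there. Cells called to 1 time point and within the study's limits were kept: UMIs of 8500 to 35000, detected genes of 2700 to 6000 and a mitochondrial share below 7% for Ishikawa, and 7500 to 40000, 1500 to 6000 and 20% for T-47D. All called T-47D barcodes lay within them.

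UMIs were summed per pool and divided by the pool's total (CPM). Groups were taken from the sample labels. With 1 culture per pool there was no test, and a gene was called at a mean of at least 10 CPM and 1.5-fold on log2(CPM + 1). Intervals are exact Poisson, exact conditional (ratios) and Clopper-Pearson (shares). Shares and rho used cells thinned to 10000 UMIs. Spread was the residual of a smooth of log2(CV + 1) on mean level (mgcv 1.9.3, R 4.3.3). The other tools were Python 3.11.15, numpy 2.4.6, pandas 2.3.3 and scipy 1.17.1, and for other scalings edgeR 4.0.16 (TMM) and DESeq2 1.42.0 (median of ratios). Level, interval, thinning and spread steps were tested on simulated data.

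The members and gene lists were chosen with earlier results of these data known. Named were the 8 members, the highest and lowest gene of each list at 2 h and 8 h in each line, and for each tested member the 3 genes of at least 20 CPM with the highest mean rho. Cells grouped by GFP share and the 9 alternatives listed as added in the closing section were chosen after the data were seen. So were the genes compared between cells with and without FOS. The value of 1 gene that this rule names is not reported here.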

Additional observations from a re-analysis of the deposited data

Results flagged for a closer look

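Some members stood on opposite sides of their 0 h level in the lines, with intervals of both ratios that excluded 1. Each line had 1 culture per time, so the difference was not tested. ATF3 had log2 changes of -0.80, -0.52 and -0.27 in Ishikawa at 2, 4 and 8 h and of 0.56, 0.23 and 0.45 in T-47D. The T-47D value at 4 h included a single cell with 27 of the 490 ATF3 UMIs, and the thinned share of cells was not above that at 0 h. FOSL2 at 2 h was at -0.54 in Ishikawa and 0.91 in T-47D. At 8 h JUN was at 0.11 in Ishikawa and -0.17 in T-47D, and JUND at 0.17 and -0.056. The JUN value in Ishikawa was below 0 in cells of under 1% GFP (-0.04), without TOP2A and MKI67 (-0.07) and over the median mitochondrial share (-0.03), and JUND in the last of these groups was at 0.004.

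A signal also appeared in cells that the main comparisons left out, the called Ishikawa cells outside the study's limits. They came from the same cultures and enter the values with every called barcode. Their FOS level was 13.4 CPM at 4 h and 10.1 CPM at 8 h, above the 4.12 CPM of such cells at 0 h. At 4 h this was also above the 3.46 CPM of the kept cells. The 809 such cells of 4 h had a median of 7584 UMIs and of 11.1% mitochondrial UMIs, and the part of either in the FOS level was not tested.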

How the results depend on the processing

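No paired analysis was possible because each group had 1 culture, and for the same reason no replicate could be left out. No called value changed sign. Uncalled changes in Ishikawa that did so beyond their counting error were, with under 1% GFP, FOSL1 at 2 h (-0.36 to 0.35) and 4 h (-0.04 to 0.58), FOSL2 (-0.22 to 0.12) and JUND (-0.06 to 0.13) at 4 h and JUN at 8 h (0.11 to -0.04), without TOP2A and MKI67 JUN at 8 h (-0.07), with at least 1% GFP JUN at 4 h (-0.10 to 0.04), and with every called barcode FOS at 4 h (-0.16 to 0.72). Of the summary values 238 stayed and 49 moved, and of the values of single members and pairs 956 stayed and 183 moved. Where a call moved, the cause was not tested.

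In Ishikawa at 2 h the 2 members passing downward became 0 at a fold of 2 or a minimum of 50 CPM, 1 in cells of low mitochondrial share, and 4 in cells with at least 1% GFP (JUNB, ATF3, FOSL1 and FOSL2, the latter pair reaching the minimum there). It became 3, with JUN, at a lower fold, with totals without reporters, a mean over cells or the upper UMI limit, without TOP2A and MKI67, with every called barcode, with under 1% GFP and in thinned cells. At 4 h the count of 1 became 2 at a lower fold, with the upper UMI limit, in cells of low mitochondrial share and in thinned cells, and 0 at a fold of 2, a minimum of 50 CPM, a pseudocount of 5 CPM, with a mean over cells, in cells without TOP2A and MKI67, with every called barcode and with at least 1% GFP. At 8 h the upward count of 0 became 2 with no minimum (FOS and FOSL1) and the downward count 1 without TOP2A and MKI67. The step from 4 h to 8 h gave 2 upward with no minimum.

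In T-47D the counts of 0 became, at a lower fold, 1 upward and 1 downward at 2 h and 8 h and 2 downward at 4 h. With no minimum 1 passed upward at 2 h (FOSL2), and in thinned cells 1 downward at 4 h (JUNB). In cells of low mitochondrial share 1 passed upward at 2 h and 8 h (ATF3) and 1 downward at 4 h and 8 h (JUNB). Between the lines 2 passed toward T-47D in place of 1 with Ishikawa cells of under 1% GFP.

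The 2 h minus 0 h difference in the share of cells was 2.11 points for JUND in Ishikawa at 15000 UMIs, -4.24 for ATF3 with under 1% GFP, and in T-47D 0.596 for JUND at 15000 UMIs, 0.469 without thinning, and 8.81 for ATF3 without thinning. The rho of JUN and ATF3 in Ishikawa was 0.38 at 2 h at 15000 UMIs, 0.38 at 2 h and 8 h without thinning, 0.33 at 0 h without reporters, 0.40 at 4 h without TOP2A and MKI67, 0.37 at 2 h with at least 1% GFP, and 0.14, 0.19, 0.19 and 0.24 with under 1% GFP. In T-47D it was 0.12, 0.15 and 0.18 at 0, 2 and 4 h without thinning and 0.13 at 2 h with another seed.

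Depth limits FOS, FOSB and FOSL1, whose T-47D pools held 0 to 21 UMIs, where no change was detectable. The 9 alternatives added after the data were seen were, between the lines, totals without reporters, a lower fold, a fold of 2 and under 1% GFP, for the steps no minimum, under 1% GFP and every called barcode, and at least 1% GFP for the fold rule and for rho.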
